A study of Mus musculus with 8 samples.

Results

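Processed pseudogenes of ribosomal protein genes were described in splenic T cells from mice immunised with the myelin protein MOG and taken at day 7 of the resulting model disease, experimental autoimmune encephalomyelitis (EAE). The members were all rows of the deposited gene table whose symbol begins with Rps or Rpl and ends in -ps, with or without a number after it, such as Rps18-ps6. There were 185 of them among 18438 rows, 77 named after small-subunit and 108 after large-subunit proteins. They fell into 46 families, each named after a parent gene, the symbol before -ps. Of the parents 45 are in the table, and Rpl36, the parent named by a pair of members, was not analysed here.

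Messenger RNA came from C57BL/6 mice of 2 genotypes, IRE1a-/- (KO) and wild type (WT), which were both at day 7 of EAE. The sort gates were CD4+ CD25hi YFP+ for Treg (regulatory T cells) and CD4+ CD25- YFP- for Teff (effector T cells). The 4 groups, Treg KO, Treg WT, Teff KO and Teff WT, held 2 libraries each. IRE1a, the product of Ern1, senses misfolded protein in the endoplasmic reticulum. The sources used here do not name the promoter behind the YFP, the cells that carry the deletion or the age of the mice, so a genotype difference seen in Teff is not necessarily one caused by deletion within those cells. Separate animals are not stated for the libraries of a group, and p-values therefore measure only the spread between libraries, which may be technical.

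A processed pseudogene arises when a messenger RNA is reverse transcribed and inserted elsewhere in the genome, so it usually lacks introns and carries the parent's coding sequence with later changes. Ribosomal protein genes are among the most abundantly transcribed genes of a growing cell and have left many such copies in mammalian genomes. A short read from the parent's messenger RNA can match a recent copy as well as the parent, and the counting program then has to divide reads between them. Each value here is a normalised read number, and reads were 50 bases long. A value in a pseudogene's row is therefore the number of reads given to that row, and it does not show by itself that the copy was transcribed.

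All 185 identifiers were found with the same version in the GENCODE M21 annotation of GRCm38 (mm10). It classes 176 as processed pseudogenes, 4 as transcribed processed pseudogenes and 5 as protein coding, and gives 180 a single transcript. The members are spread over 20 chromosomes, and only 7 lie on the chromosome of their parent. By position, 127 lie between genes, 49 within an intron of another gene and 9 over an exon of another gene.

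Copies of Rps18, Rps15a and Rps7 had the main genotype differences described below. Their sequences are shown because the bases at which they differ from the parent are those by which a read can be told from the parent's. Other genes can carry the same bases, so a difference from the parent does not by itself place a read. The parents encode small-subunit proteins of the ribosome. Positions are counted from 1 at the A of the parent's start codon. In the first set, bases 133 to 432 of the Rps18 coding sequence (gene chr17:33951999-33956001, minus strand) are set beside the same stretch of Rps18-ps6 (chr13:97760157-97760456, minus strand) and Rps18-ps3 (chr8:107262817-107263116, minus strand). Capitals in the parent mark each base at which a copy differs, and capitals in a copy mark its own differences. All sequences are from GENCODE M21 on GRCm38, and those of parents are spliced.
Rps18: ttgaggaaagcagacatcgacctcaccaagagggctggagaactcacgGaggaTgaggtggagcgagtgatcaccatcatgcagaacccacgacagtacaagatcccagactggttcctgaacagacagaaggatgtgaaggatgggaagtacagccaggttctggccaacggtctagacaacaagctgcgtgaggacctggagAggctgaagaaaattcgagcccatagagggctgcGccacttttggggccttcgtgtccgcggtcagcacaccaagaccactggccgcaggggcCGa
Rps18-ps6: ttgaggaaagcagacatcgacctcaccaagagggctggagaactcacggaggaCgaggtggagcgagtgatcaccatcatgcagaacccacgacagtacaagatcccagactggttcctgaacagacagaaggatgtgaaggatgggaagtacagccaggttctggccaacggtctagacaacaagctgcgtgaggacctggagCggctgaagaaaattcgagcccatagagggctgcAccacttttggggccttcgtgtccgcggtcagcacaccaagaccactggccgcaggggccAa
Rps18-ps3: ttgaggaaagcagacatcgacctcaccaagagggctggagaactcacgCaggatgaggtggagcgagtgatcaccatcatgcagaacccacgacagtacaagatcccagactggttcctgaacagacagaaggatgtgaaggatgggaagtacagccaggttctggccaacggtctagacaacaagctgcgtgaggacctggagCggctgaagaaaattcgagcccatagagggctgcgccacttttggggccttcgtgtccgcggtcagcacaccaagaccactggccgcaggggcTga

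Rps18-ps6 differed from the parent coding sequence at 4 bases (T186C, A337C, G371A and G431A) and Rps18-ps3 at 3 (G181C, A337C and C430T), so the copies share 1 change. Rps18-ps6 kept an open reading frame over these 100 codons, and the annotation classes it as protein coding. In Rps18-ps3 the change C430T makes codon 144 a stop codon, TGA. Of the 50-base windows of Rps18-ps6, 56.6% occur in annotated transcripts of Rps18 and 3.52% in no other annotated gene. It lies over an exon of Gm26619, a gene on the opposite strand that holds 96.5% of its windows and was not analysed here. In Rps18-ps3, 68.8% of the windows occur in Rps18 and 18.9% in no other gene.

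The second set gives bases 133 to 372 of the Rps15a coding sequence (gene chr7:118104372-118116188, minus strand). Beside it stand Rps15a-ps8 (chr4:53791085-53791324, minus strand), Rps15a-ps5 (chr5:105797342-105797581, minus strand, within an intron of Lrrc8d on the other strand), Rps15a-ps7 (chr2:152185312-152185551, minus strand) and Rps15a-ps3 (chr4:150847247-150847486, plus strand).
Rps15a: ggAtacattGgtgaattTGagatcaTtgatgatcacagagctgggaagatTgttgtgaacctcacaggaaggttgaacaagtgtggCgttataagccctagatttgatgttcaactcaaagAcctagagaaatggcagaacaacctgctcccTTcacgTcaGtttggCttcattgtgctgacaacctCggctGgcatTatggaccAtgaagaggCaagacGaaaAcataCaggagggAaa
Rps15a-ps8: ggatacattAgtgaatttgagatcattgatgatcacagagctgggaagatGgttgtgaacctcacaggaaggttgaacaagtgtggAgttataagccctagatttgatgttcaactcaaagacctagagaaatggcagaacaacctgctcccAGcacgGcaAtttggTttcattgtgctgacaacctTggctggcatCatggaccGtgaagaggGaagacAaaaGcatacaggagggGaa
Rps15a-ps5: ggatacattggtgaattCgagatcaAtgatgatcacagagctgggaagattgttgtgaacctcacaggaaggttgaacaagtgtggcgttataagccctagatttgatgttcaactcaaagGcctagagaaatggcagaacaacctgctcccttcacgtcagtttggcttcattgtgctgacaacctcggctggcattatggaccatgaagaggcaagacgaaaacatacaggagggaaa
Rps15a-ps7: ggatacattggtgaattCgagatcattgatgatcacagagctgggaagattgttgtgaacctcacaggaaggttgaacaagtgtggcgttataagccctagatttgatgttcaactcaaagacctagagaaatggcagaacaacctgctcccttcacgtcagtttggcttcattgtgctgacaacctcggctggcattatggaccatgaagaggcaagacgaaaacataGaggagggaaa
Rps15a-ps3: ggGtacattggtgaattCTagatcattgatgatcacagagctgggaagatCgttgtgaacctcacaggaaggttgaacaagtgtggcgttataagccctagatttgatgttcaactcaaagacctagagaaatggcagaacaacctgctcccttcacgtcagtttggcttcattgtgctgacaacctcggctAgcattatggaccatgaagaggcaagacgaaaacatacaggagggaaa

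Rps15a-ps8 is the most diverged of these copies, with 30 mismatches over the aligned coding sequence (92.2% identity), 15 of them in the stretch shown. In it 90.5% of the 50-base windows occur in no other annotated gene, against 52.6% in Rps15a-ps5, 60.4% in Rps15a-ps3 and 33.2% in Rps15a-ps7. Rps15a-ps5, Rps15a-ps7 and Rps15a-ps3 share the change T150C. In Rps15a-ps3 codon 51 reads as the stop codon TAG, and the other 3 copies have no stop codon in the 80 codons shown.

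The third set gives bases 1 to 200 of the Rps7 coding sequence (gene chr12:28630854-28635953, minus strand) and of Rps7-ps3 (chrX:152909921-152910120, minus strand), the only pseudogene of Rps7 in the table.
Rps7: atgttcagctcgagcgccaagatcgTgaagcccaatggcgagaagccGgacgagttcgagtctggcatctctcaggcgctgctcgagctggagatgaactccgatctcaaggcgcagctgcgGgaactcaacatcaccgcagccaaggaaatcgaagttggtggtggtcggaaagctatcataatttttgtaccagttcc
Rps7-ps3: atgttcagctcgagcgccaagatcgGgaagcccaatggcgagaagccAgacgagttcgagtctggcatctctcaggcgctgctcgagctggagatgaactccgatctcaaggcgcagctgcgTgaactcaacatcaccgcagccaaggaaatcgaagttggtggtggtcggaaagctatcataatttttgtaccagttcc

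Rps7-ps3 differed at T26G, G48A and G123T, and 77.9% of its windows occur in Rps7. The annotation classes it as a transcribed processed pseudogene.

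Before the comparisons, the libraries were checked. The deposited values summed to between 17504097 and 18751258 per library. On the log2 scale, r between replicates was 0.976 to 0.978 over all rows. Ern1, the targeted gene, had 326 and 359 in KO Treg, against 377 and 399 in WT Treg, and 458 and 453 in KO Teff, against 559 and 616 in WT Teff. All KO values lay below those of WT in the same cell type, but neither difference passed (limma adjusted p = 0.489 and 0.0902), and the deleted stretch of Ern1 is not stated, so this gene does not check the genotype. The sum of 4 Treg markers (Foxp3, Il2ra, Ikzf2 and Ctla4) was 41305 to 47468 in Treg and 5308 to 8781 in Teff. Foxp3 itself had 111 and 117 in KO Treg, against 89.1 and 92.2 in WT Treg. In Teff it had 2.06 and 8.29 in KO, against 0 and 0 in WT. The summed level of 3 myeloid markers (Lyz2, Itgam and Csf1r, none at 0) was 2219 to 2330 in KO Treg, against 3736 to 3821 in WT Treg, and 198 to 204 in KO Teff, against 511 to 568 in WT Teff. Other sums stood apart by genotype too. In Teff the NK cell markers Ncr1 and Klrb1c summed to 345 and 283 in KO, against 449 and 571 in WT, and the 4 Treg markers to 6085 and 5308 in KO, against 7697 and 8781 in WT. Sums for T, B and erythroid cells were also lower in KO Teff without overlap, as were the Treg and erythroid sums in KO Treg, while CD8 T cell markers were higher in KO Treg (265 and 295, against 261 and 248 in WT Treg). These sums thus moved with genotype beside the KO differences below, and their part in them was not tested. Single genes did not all follow their sum. Foxp3 was higher in KO in both cell types, while the Treg sum was lower. KO and WT values overlapped in others, such as Itgam in Treg, Cd3e and Cd79a in Teff, and Alas2 in both cell types.

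Most members had almost no reads and a few had very many. The median of the members' mean values over the 8 libraries was 5.69, with a range of 0.246 to 26329. Mean values exceeded 1000 in 25 members, lay between 100 and 1000 in 5, between 10 and 100 in 33, and were 10 or less in 122. The 6 highest members took 52.6% of all reads given to pseudogenes. These were Rps6-ps4, Rps7-ps3, Rps23-ps1, Rpl10-ps3, Rpl19-ps11 and Rpl23a-ps3, and per kilobase of annotated transcript Rps23-ps1 ranked first with 40993, then Rps6-ps4 with 35106 and Rps7-ps3 with 31107. At the other end 83 members were listed at 0 in at least 1 library.

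Rps6-ps4 had 21449 and 21654 in KO Treg, against 21078 and 20915 in WT Treg, and 32168 and 35454 in KO Teff, against 28197 and 29721 in WT Teff. Its parent Rps6, a small-subunit protein phosphorylated by the S6 kinases, had 12619 and 12572 in KO Treg, against 13286 and 12769 in WT Treg, and 20163 and 21129 in KO Teff, against 17965 and 18040 in WT Teff. The intronless copy on chromosome 2 thus held more reads than the gene in every library. Its aligned coding sequence is identical to that of the parent, and every one of its 50-base windows also occurs in Rps6, so no such window tells them apart.

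A member's value went with how closely it matches its parent. Of 34 members whose alignment covers at least 99% of the parent's coding sequence at 99% identity or more, 23 had a mean above 1000, and their median was 3918. Of the other 151 members 2 did, and their median was 4.51. Those 2 were Rpl14-ps1 (98.9% identity) and Rps15a-ps7 (98.7%). The 25 members above 1000 had 98.7% to 100% identity and 56.6% to 100% of their windows in the parent. Across all 185 members Spearman's rho between the mean value and identity was 0.73, and between the mean value and the percent of windows in the parent 0.71. Across the 183 members whose parent is in the table it was 0.01 between the member's value and the parent's. These are descriptions across genes that share libraries, depth and often a parent.

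Members that can be told apart from every other gene were at the low end. In 7 members all 50-base windows occur in no other annotated gene, and their means lay between 0.252 and 3.91. In 13 members no window is unique, and 9 of these had means above 1000. Some close copies were low as well. Rpl10-ps6, at 99.8% identity to Rpl10 and with 91.6% of its windows in that gene, had a mean of 7.29, and Rpl10-ps5, at 99.5%, had 23.0, while Rpl10-ps3, at 100%, had 14653. Rps23-ps2, at 99.5%, had 2.12 although none of its windows is unique, against 17422 in Rps23-ps1, at 100%. Rps13-ps4 had 9.02, Rpl18-ps2 8.36, Rpl13-ps6 4.33 and Rps18-ps5 3.01 at 99.3%, 99.3%, 99.5% and 99.3% identity. Rps18-ps3, with 1246, has the same identity as Rps18-ps5. Close likeness thus went with high values in most members and not in all.

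**Figure D1:**
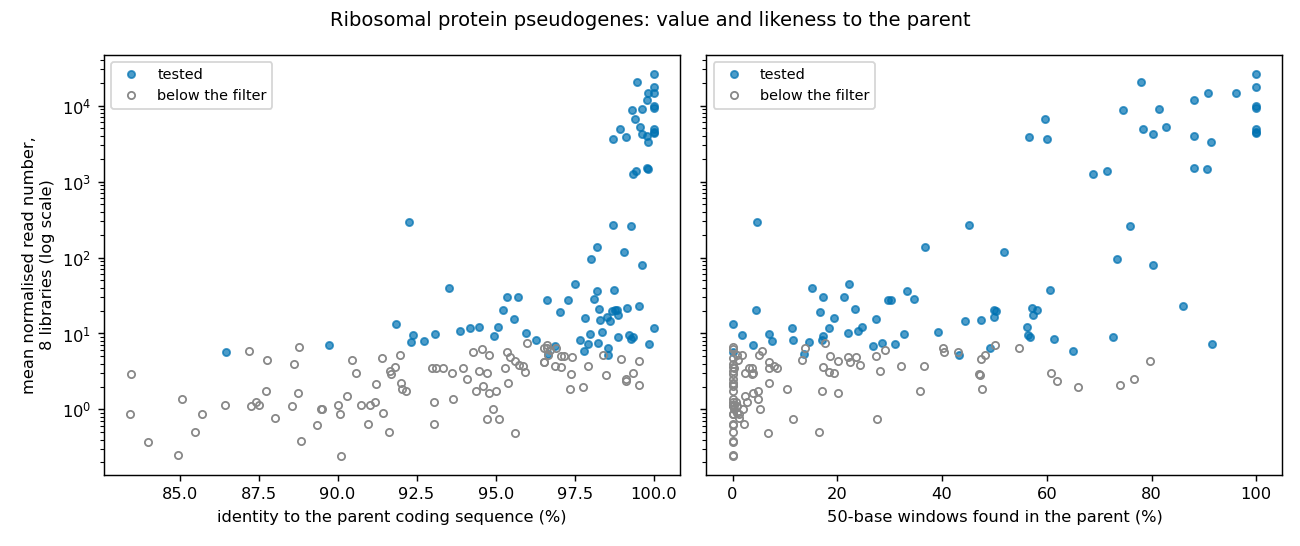
Mean normalised read number over the 8 libraries (log scale) of the 185 ribosomal protein pseudogenes, against identity to the parent's coding sequence on the left and the percent of 50-base windows found in the parent on the right. Filled points are the 85 members tested and open points the 100 below the filter on low values. Members above 1000 crowd at the right of both panels. The low point at 100% identity is Rpl13-ps1, whose alignment covers 1.58% of the parent's coding sequence.

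The division of reads between a member and its parent was steady across libraries for most pairs. Shares here are shares of reads, not of transcripts, since a member and its parent differ in length. Rpl17-ps3 held 89.4% of the reads of the pair with Rpl17 in KO Treg and 89.2% in WT Treg (means of n = 2), and 88.6% in KO Teff and 88.7% in WT Teff. Rpl10a-ps1 held 82.7% over the 8 libraries, Rps23-ps1 75.4%, Rpl28-ps1 69.1%, Rpl36a-ps2 66.5% and Rps6-ps4 62.1%. Rpl10a-ps1 was less steady, with 78.2% and 79.7% in WT Treg, against 87.2% and 86.0% in WT Teff. Rpl3-ps1 had 6.82% and 14.8% in the libraries of KO Teff. At the low end of the 25 members above 1000, Rpsa-ps10 held 11.1%, Rps18-ps3 9.73% and Rpl9-ps4 9.36%. With all pseudogenes of a family added, they held over 50% of the family's reads in 11 of the 45 families with a parent in the table, most of all in the Rpl17 family with 92.4%.

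In a few pairs the division differed between genotypes, in the same way in both cell types. Rps7-ps3 held 85.3% ± 0.0866 of its pair in KO Treg, against 73.0% ± 0.741 in WT Treg, and 85.2% ± 0.0332 in KO Teff, against 73.0% ± 0.152 in WT Teff (SD, n = 2). Rps13-ps1 held 59.7% ± 6.70 in KO Treg, against 75.1% ± 3.20 in WT Treg, and 55.4% ± 3.28 in KO Teff, against 75.2% ± 2.88 in WT Teff. The Rps18 pseudogenes together held 48.2% ± 2.22 of their family's reads in KO Treg, against 0.378% ± 0.0376 in WT Treg, and 50.9% ± 0.0969 in KO Teff, against 0.473% ± 0.289 in WT Teff. No share was tested.

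**Figure D2:**
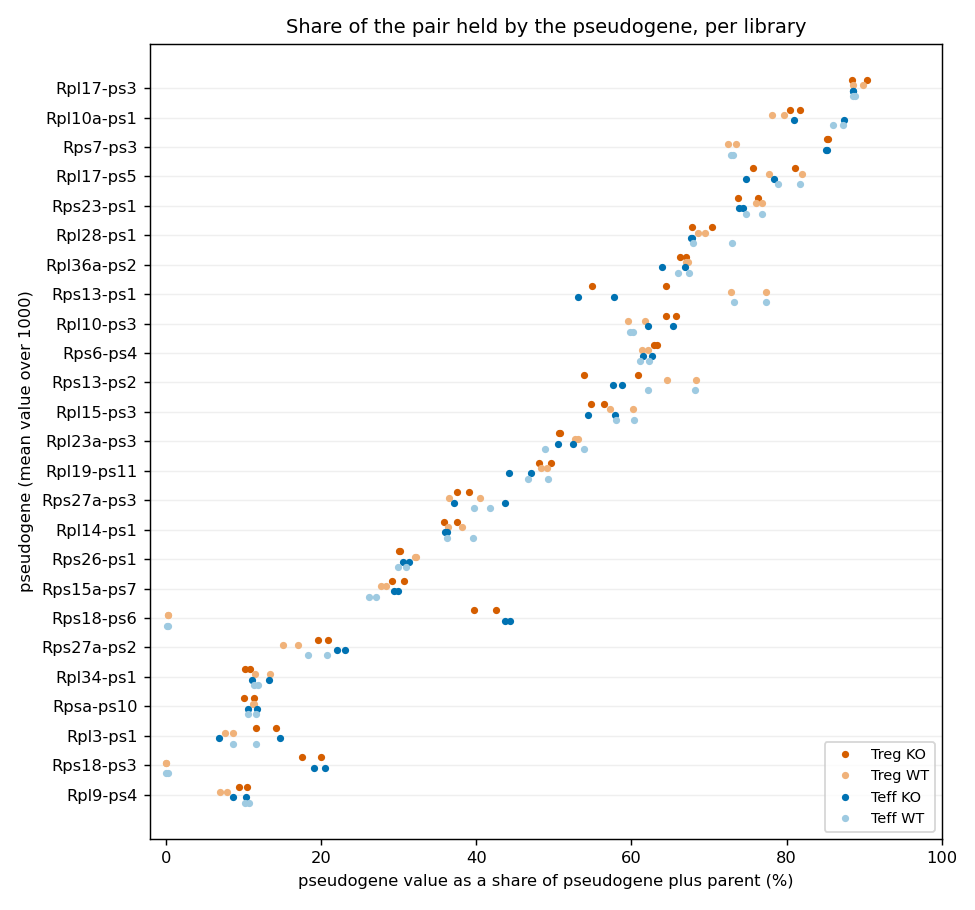
Share of the reads of a pair that was given to the pseudogene (percent of pseudogene plus parent), for the 25 pseudogenes with a mean value above 1000. Each point is 1 library, with Treg KO, Treg WT, Teff KO and Teff WT from top to bottom in each row. Most rows form tight clusters, while Rps7-ps3 lies near 85% in KO and 73% in WT, and Rps18-ps6 near 41% to 44% in KO and 0.2% in WT.

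The first comparison asked which members differed between KO and WT Treg. Fold changes are differences of log2(value + 1), a scale that understates them at low values. P-values are from limma, adjusted by Benjamini-Hochberg over the 13358 genes that reached 10 in 2 or more libraries. Of the 185 members 85 were tested, and the other 100, with means up to 7.60, were not. In KO Treg 2 members were higher (Rps18-ps6 and Rps18-ps3) and 2 lower (Rps15a-ps8 and Rps15a-ps5), 4 of 85, while 1.45% of all genes tested passed (0.674% higher and 0.779% lower). All are copies of the small-subunit genes Rps18 and Rps15a. None of the 47 large-subunit members tested passed (2 had an unadjusted p below 0.05, as did 1964 of the 13358 genes). At the share of all genes 47 members would give almost no calls, so this shows no difference between the subunits. The tested members had a median log2 fold change of -0.02 and all genes -0.01. Of 78 cytosolic ribosomal protein genes tested, 1 was higher and 1 lower.

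Rps18-ps6 had 5251 and 5614 in KO Treg, against 29.4 and 31.4 in WT Treg (log2 fold change 7.43, SE 0.33, adjusted p = 0.000103). The groups were far apart, and the reads of both libraries (value divided by what 1 read was worth) put KO at 179 times WT (11051 KO against 62 WT reads, exact 95% interval 139 to 233, which covers counting error only). The interval takes the reads given to this row as they stand, and error in how reads were divided between genes is not in it. Rps18-ps3 had 1703 and 1902 in KO Treg, against 7.84 and 6.87 in WT Treg (log2 fold change 7.75, SE 0.86, adjusted p = 0.00795). It passed the filter almost only through KO, and its call was lost without any one of the 4 Treg libraries (adjusted p up to 0.0804). The other pseudogenes of this family in the table were low, with means of 7.53 in Rps18-ps1 and 3.01 in Rps18-ps5.

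Rps18, the parent of these copies, encodes a protein of the head of the small subunit. It had 7973 and 7590 in KO Treg, against 12305 and 12509 in WT Treg (log2 fold change -0.67, SE 0.08, adjusted p = 0.00839). It was the 1 ribosomal protein gene that passed as lower, so parent and copies changed in opposite directions. Summed with its pseudogenes, the family had 14937 and 15108 in KO Treg, against 12355 and 12553 in WT Treg. In a fit of the whole table with each family summed into 1 row, the difference was 0.27 (SE 0.07, adjusted p = 0.152), with the sign opposite to that of the parent alone and not passing.

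Rps15a-ps8, the diverged copy, had 1.97 and 2.95 in KO Treg, against 538 and 486 in WT Treg (log2 fold change -7.23, SE 0.62, adjusted p = 0.00257). In reads this was 5 in KO against 1044 in WT, so WT was 208 times KO with an exact 95% counting interval of 89.0 to 643. It passed the filter only through WT. Rps15a-ps5 had 49.2 and 44.2 in KO Treg, against 327 and 353 in WT Treg (log2 fold change -2.84, SE 0.21, adjusted p = 0.00153). The libraries did not overlap in either copy, and both calls held under all 18 alternative settings and left-out libraries.

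Rps15a, their parent, is also a small-subunit protein gene. It had 6668 and 6920 in KO Treg, against 7330 and 7040 in WT Treg (log2 fold change -0.08, SE 0.09, adjusted p = 0.733). Its other copies with reads did not pass either. Rps15a-ps7 had 2948 and 2857 in KO Treg, against 2816 and 2796 in WT Treg, and Rps15a-ps3 had 91.5 and 106 in KO Treg, against 115 and 126 in WT Treg. The lower values were thus those of 2 of 4 tested copies of this parent.

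**Figure D3:**
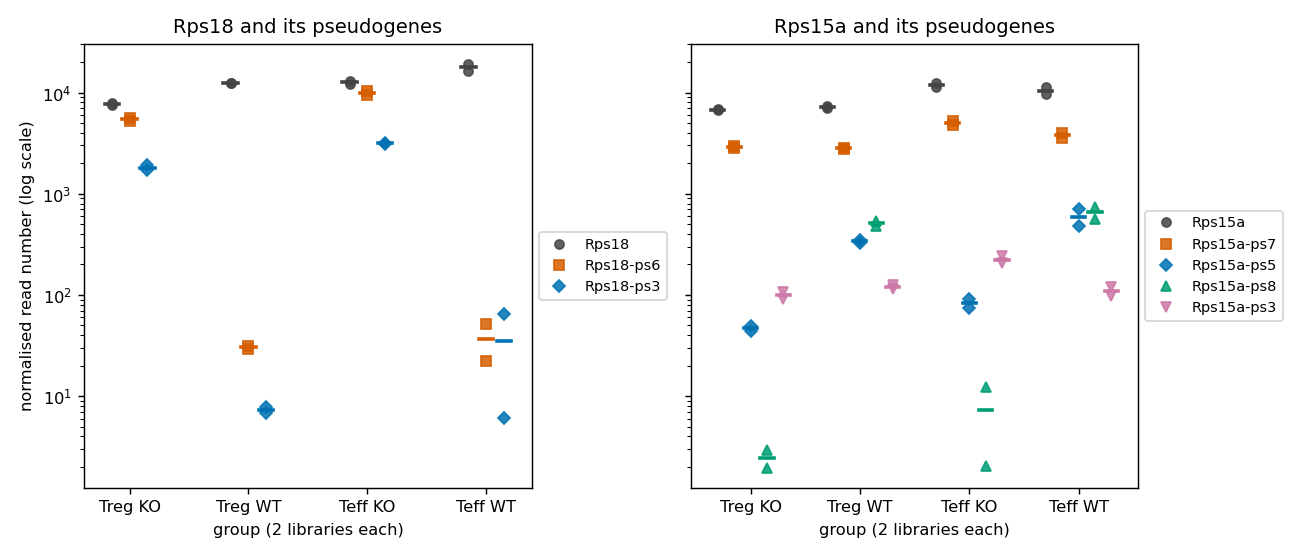
Normalised read numbers (log scale) of Rps18 with its pseudogenes (left) and Rps15a with its pseudogenes (right) in each of the 8 libraries, with a short line at each group's mean. Rps18-ps6 and Rps18-ps3 lie above 1000 in KO and below 100 in WT, and Rps15a-ps8 below 15 in KO and between 486 and 748 in WT. The parents lie between 6668 and 19081.

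The 4 copies lie on chromosomes 13, 8, 4 and 5, apart from each other and from Ern1 on chromosome 11, and their surroundings were looked at in the same fit. Within 1000000 bases of Rps18-ps6, Rps18-ps3, Rps15a-ps8 and Rps15a-ps5 there were 10, 20, 6 and 13 other tested genes. None was called in KO against WT Treg, where 1.45% of all genes passed. At that share so few genes would give almost no calls in any case. In Teff, where 6.92% of all genes passed, 0 and 0 were called around the Rps18 copies. Abca1 was called around Rps15a-ps8 (1 of 6, higher), and Gbp6 and Zfp951 around Rps15a-ps5 (2 of 13, lower). Lrrc8d, which holds Rps15a-ps5 in an intron, had a log2 fold change of 0.14 in Treg (adjusted p = 0.607) and -0.26 in Teff (adjusted p = 0.225). Around the parent Rps18, in the MHC region of chromosome 17, 4 of 69 tested genes passed as lower in KO Treg (H2-Ab1, H2-DMb1, H2-K1 and Tap1), against 0.779% of all genes. In KO Teff 6 of the 69 passed as higher and 5 as lower, against 1.84% and 5.08% of all genes.

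The second comparison set KO against WT in Teff. Here 11 of 85 members passed, 9 higher and 2 lower in KO, against 6.92% of all genes. By direction, 1.84% of all genes passed as higher and 5.08% as lower. The tested members had a median log2 fold change of 0.24, all genes -0.02 and the 78 ribosomal protein genes 0.25, of which 28 were higher and 1 lower. Of the 25 members above 1000, 8 passed and all were higher. Rps18-ps6, Rps18-ps3, Rps15a-ps8 and Rps15a-ps5 passed here too, in libraries other than those compared in Treg, and with the signs they had there. The Treg and Teff libraries may come from the same mice, and the fit shares 1 estimate of spread over all 8 libraries. The calls in Teff are therefore not an independent repeat of those in Treg.

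Rps18-ps6 had 10462 and 9538 in KO Teff, against 22.1 and 51.4 in WT Teff (log2 fold change 8.17, SE 0.33, adjusted p = 7.40e-05). Rps18-ps3 had 3106 and 3172 in KO Teff, against 6.03 and 64.5 in WT Teff (log2 fold change 7.19, SE 0.86, adjusted p = 0.00559). The WT Teff libraries differed widely from each other in Rps18-ps3, and both were far below KO. Rps18 had 13150 and 12252 in KO Teff, against 16417 and 19081 in WT Teff (log2 fold change -0.48, SE 0.08, adjusted p = 0.0147). Summed with its copies, the family was higher in KO by 0.54 (SE 0.07, adjusted p = 0.00923), with 26730 and 24973 in KO Teff, against 16461 and 19211 in WT Teff. In both cell types the parent's row and the family sum thus had opposite signs.

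Rps15a-ps8 had 12.4 and 2.06 in KO Teff, against 566 and 748 in WT Teff (log2 fold change -6.67, SE 0.62, adjusted p = 0.00240). Rps15a-ps5 had 74.3 and 90.6 in KO Teff, against 484 and 705 in WT Teff (log2 fold change -2.82, SE 0.21, adjusted p = 0.00125). Both sets of values were apart without overlap, as in Treg. A pair of other copies moved the other way. Rps15a-ps3 had 241 and 205 in KO Teff, against 97.4 and 121 in WT Teff (log2 fold change 1.03, SE 0.19, adjusted p = 0.0224), and Rps15a-ps7 had 5195 and 4821 in KO Teff, against 3570 and 4005 in WT Teff (log2 fold change 0.40, SE 0.07, adjusted p = 0.0209). Rps15a itself did not pass (12450 and 11308 in KO Teff, against 9579 and 11321 in WT Teff, log2 fold change 0.19, adjusted p = 0.262).

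Rps7-ps3 had 35294 and 30748 in KO Teff, against 17348 and 21592 in WT Teff (log2 fold change 0.77, SE 0.11, adjusted p = 0.00893). Its parent Rps7, a small-subunit protein gene, had 6140 and 5369 in KO Teff, against 6384 and 8032 in WT Teff (log2 fold change -0.32, adjusted p = 0.151). In Treg the copy had 16527 and 16862 in KO, against 11962 and 11672 in WT (log2 fold change 0.50, adjusted p = 0.0773), and the parent 2867 and 2896 in KO, against 4312 and 4437 in WT (log2 fold change -0.60, adjusted p = 0.0567). Neither passed limma's test in Treg, though both were below 0.05 in the authors' deposited adjusted p-values. KO and WT libraries did not overlap in the copy or the parent, which is common with 2 libraries per group. Of the 85 tested members, 17 stood wholly higher in KO Treg and 19 wholly lower. Of the 78 ribosomal protein genes 16 and 22 did. The share of all genes that did so is not given here, so these counts describe the lists only and set neither apart from other genes. The sum of the pair was higher in KO by 0.54 in Teff (adjusted p = 0.0278) and by 0.27 in Treg (adjusted p = 0.295), so for Rps7 too the sign of the parent's row and of the sum differed.

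Rps13-ps2, which has no window of its own, had 5906 and 6798 in KO Teff, against 3833 and 3590 in WT Teff (log2 fold change 0.77, SE 0.08, adjusted p = 0.00299). Rps13, the parent, moved with it, with 4147 and 4993 in KO Teff, against 2340 and 1678 in WT Teff (log2 fold change 1.20, SE 0.21, adjusted p = 0.0199). Rps13-ps1 did not, with 5663 and 5650 in KO Teff, against 6396 and 5708 in WT Teff (log2 fold change -0.10, adjusted p = 0.497). The summed family was higher in KO Teff by 0.50 (adjusted p = 0.0163).

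The remaining calls in Teff were smaller and were of large-subunit copies, all higher in KO. Rpl17-ps3 had 11784 and 13033 in KO Teff, against 9384 and 9254 in WT Teff (log2 fold change 0.41, adjusted p = 0.00868). Rpl10-ps3 had 19457 and 20542 in KO Teff, against 15393 and 16488 in WT Teff (log2 fold change 0.33, adjusted p = 0.0189). Rpl14-ps1 had 6468 and 7641 in KO Teff, against 5371 and 5638 in WT Teff (log2 fold change 0.35, adjusted p = 0.0493). Of their parents, Rpl14 passed (0.47, adjusted p = 0.0220), while Rpl17 (0.43, adjusted p = 0.0833) and Rpl10 (0.10, adjusted p = 0.503) did not. The call of Rpl14-ps1 was lost in 14 of 18 alternatives.

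Most pseudogenes of high value had KO fold changes within 0.25 of the parent's on the log2 scale. Among the 25 pairs above 1000 this held for 15 pairs in Treg and 17 in Teff. The median of the differences was 0.01 and -0.01. Changes near 0 lie within that limit whatever their sign, and the signs were opposite in 15 pairs in Treg and 5 in Teff. In Teff both rows were called in 4 pairs, only the member in 4, only the parent in 8 and neither in 9. Pairs further apart in both cell types were Rps18-ps6, Rps18-ps3, Rps7-ps3, Rps13-ps1 and Rps13-ps2, described above, and Rps27a-ps2, which differed from Rps27a by 0.41 in Treg and 0.26 in Teff. In Treg the others were Rpl3-ps1 (0.74), Rpl9-ps4 (0.47), Rpl34-ps1 (-0.28) and Rpl10-ps3 (0.28), and in Teff Rpl17-ps5 (-0.32) and Rpl10a-ps1 (-0.25). No difference within a pair was tested. With each of the 46 families summed into 1 row, none passed limma's test in KO against WT Treg, where 1.42% of all rows passed. An unadjusted p below 0.05 was found in 4 of these families and in 1953 of all 13274 rows. In Teff 19 families were higher and 0 lower, while 6.90% of all rows passed and 1.81% as higher.

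**Figure D4:**
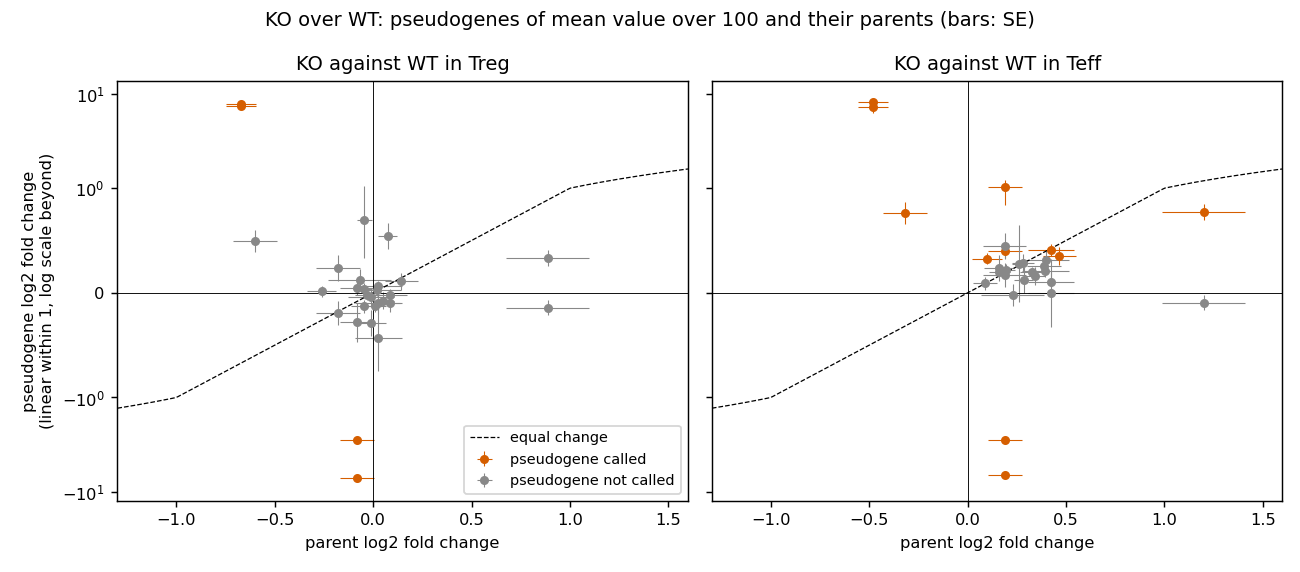
Log2 fold changes of KO over WT for pseudogenes with a mean value above 100 (vertical axis, linear within 1 and logarithmic beyond) against those of the parent gene (horizontal axis), in Treg on the left and Teff on the right, with SE bars and a dashed line of equal change. Most pairs lie near the line between -0.3 and 0.5. Rps18-ps6 and Rps18-ps3 stand at 7.2 to 8.2 above a parent with a negative change, and Rps15a-ps8 and Rps15a-ps5 far below a parent near 0.

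The third comparison asked whether the KO effect differed between Treg and Teff. No member of 85 passed limma's test of the difference, and 0.0225% of all genes passed. An unadjusted p below 0.05 was found in 14 of the 85 members and in 1384 of all 13358 genes tested. The median difference (Treg minus Teff) was -0.28 in tested members, -0.26 in ribosomal protein genes and 0.02 in all genes. For Rps18-ps6 the effect was 7.43 in Treg and 8.17 in Teff, a difference of -0.73 (SE 0.46, adjusted p = 0.664). For Rps15a-ps8 it was -7.23 and -6.67, a difference of -0.55 (SE 0.87, adjusted p = 0.887). The largest differences that did not pass were in low members. Rpsa-ps2 had 25.6 and 0 in KO Treg, against 40.2 and 64.7 in WT Treg, and 61.9 and 28.8 in KO Teff, against 48.2 and 29.2 in WT Teff.

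The last comparisons set Treg against Teff within a genotype. In KO 26 of 85 members passed, all lower in Treg, where 26.9% of all genes passed, 15.7% as higher and 11.2% as lower. In WT 22 passed, all lower in Treg, where 25.1% of all genes passed, 13.5% as higher and 11.6% as lower. The calls sat in the high members, with 22 of the 25 above 1000 in KO and 21 in WT. Cytosolic ribosomal protein genes were lower in Treg in 73 of 78 in KO and 67 in WT. All members together took 0.932% and 0.933% of the library in KO Treg and 1.44% and 1.50% in KO Teff, and 0.854% and 0.855% in WT Treg and 1.12% and 1.16% in WT Teff. Whether Teff held more of these reads per cell, or more cells rich in them, cannot be told apart in bulk samples. Markers of other cells moved with the cell type too. The myeloid sum was 2219 to 3821 in Treg and 198 to 568 in Teff, and the B cell sum 84.5 to 112 in Treg and 54.1 to 70.0 in Teff. Most of the myeloid sum in Treg was Csf1r (2033 to 3655 in Treg and 55.3 to 300 in Teff). Itgam went the other way in WT, with 77.3 and 28.0 in Treg, against 186 and 330 in Teff, and overlapped in KO. The NK cell markers summed to 18.5 to 42.8 in Treg (Ncr1 at 0 in all) and 283 to 571 in Teff, and the erythroid markers Hba-a1 and Alas2 to 351 to 490 in Treg and 43.8 to 83.9 in Teff. Their part in these results was not tested.

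Rps23-ps1 had 13525 and 13879 in KO Treg, against 21676 and 24193 in KO Teff (log2 fold change -0.74, SE 0.06, adjusted p = 0.000143). In WT it had 13852 and 13983 in Treg, against 18563 and 19706 in Teff (-0.46, SE 0.06, adjusted p = 0.00160). Rpl10-ps3 had 11082 and 11696 in KO Treg, against 19457 and 20542 in KO Teff (-0.81), and 11040 and 11529 in WT Treg, against 15393 and 16488 in WT Teff (-0.50). Treg and Teff libraries did not overlap in either.

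The largest changes among the called members above 1000 included those of Rps27a, whose protein is made as a fusion with ubiquitin. Rps27a-ps2 had 1154 and 1066 in KO Treg, against 2440 and 2119 in KO Teff (log2 fold change -1.04), and 1055 and 841 in WT Treg, against 1667 and 1668 in WT Teff (-0.82). Rps27a-ps3 was at -0.97 in KO and -0.61 in WT, beside -0.84 and -0.48 for Rps27a itself. The large-subunit copies Rpl34-ps1 (-0.99 in KO and -0.47 in WT), Rpl17-ps5 (-0.68 and -0.48) and Rpl15-ps3 (-0.62 and -0.36) and the small-subunit copy Rps26-ps1 (-0.58 and -0.26) passed in both genotypes too. Their adjusted p-values were at most 0.0285. The other called members above 1000 ranged from -0.98 (Rps7-ps3) to -0.35 (Rps13-ps1) in KO and from -0.99 (Rpl9-ps4) to -0.31 (Rps13-ps1) in WT. Of the copies that differed by genotype, Rps15a-ps5 passed at -0.80 in KO (adjusted p = 0.0290) and -0.78 in WT (adjusted p = 0.0344), and Rps15a-ps3 at -1.17 in KO (adjusted p = 0.00346) but not in WT. Both Rps15a-ps5 calls were lost in 6 of 18 alternatives. Over the 25 members above 1000, the Treg libraries lay wholly below those of Teff in 24 in KO and 23 in WT, while among all genes 32.1% and 31.5% did so.

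In these comparisons too most members lay close to their parents. The member's log2 fold change lay within 0.25 of the parent's in 22 of 25 pairs in KO and 19 in WT. Rpl10a-ps1 was an exception, at -0.42 in KO and -0.57 in WT (adjusted p = 0.0226 and 0.00699), where Rpl10a itself had -0.08 and 0.22 and did not pass. With families summed, 43 of 46 were lower in Treg in KO and 40 in WT, where 11.1% and 11.5% of all rows passed as lower, and none was higher. Low members contributed few calls. In KO, Rpl13a-ps1 had 12.8 and 9.83 in Treg, against 34.0 and 26.8 in Teff, and Rpsa-ps9 had 26.6 and 18.7 in Treg, against 41.3 and 64.9 in Teff. These 2 calls were lost in 5 and 7 of 18 alternatives.

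**Figure D5:**
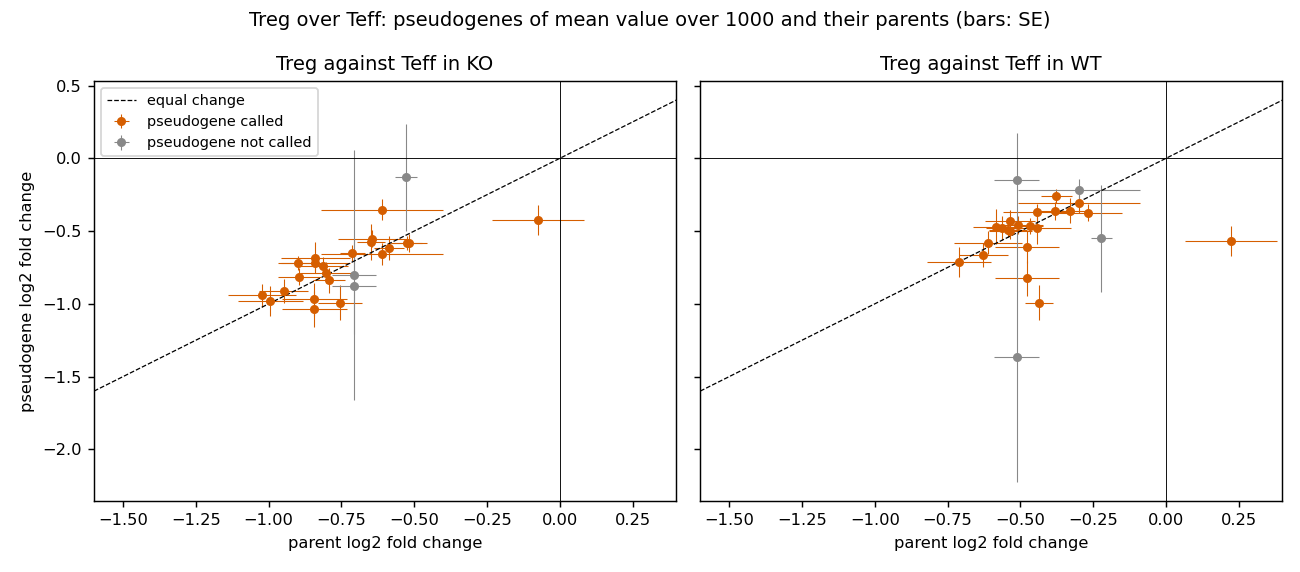
Log2 fold changes of Treg over Teff for the 25 pseudogenes with a mean value above 1000 (vertical axis) against those of the parent gene (horizontal axis), in KO on the left and WT on the right, with SE bars and a dashed line of equal change. Every pseudogene lies below 0, and most points are close to the line. Rpl10a in WT is the 1 parent above 0.

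The members that did not pass include some with large fold changes at low values. In Treg these were Rpsa-ps2, given above, Rpl28-ps3 and Rpl17-ps4. Rpl28-ps3 had 14.8 and 6.88 in KO Treg, against 0 and 5.89 in WT Treg (log2 fold change 2.09, SE 1.15, adjusted p = 0.472). Rpl17-ps4 had 0 and 8.84 in KO Treg, against 12.7 and 5.89 in WT Treg (log2 fold change -1.63, SE 1.08, adjusted p = 0.556). Their groups stood apart by little or overlapped. In Teff, Rpl10-ps5 had 72.2 and 35.0 in KO, against 9.04 and 10.1 in WT. Rpl31-ps16 had 17.5 and 12.4 in KO, against 2.01 and 5.04 in WT. Rps2-ps6 had 15.5 and 0 in KO, against 15.1 and 21.2 in WT. These 3 had an adjusted p of at least 0.271. For the difference of the KO effects Rpl31-ps14, with at most 15.1 in any library, had -2.17 (SE 1.98, adjusted p = 0.783). For Treg against Teff in WT, Rpl19-ps6 had 2.94 and 12.8 in Treg, against 19.1 and 37.3 in Teff (log2 fold change -1.91, SE 0.64, adjusted p = 0.0706).

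In the authors' deposited table, which gives adjusted p-values for 102 members in Treg and 68 in Teff, 7 and 19 members were below 0.05, where 3.28% and 8.82% of all genes with such a value were. In Treg 5 of these were higher and 2 lower in KO, and in Teff 17 were higher and 2 lower. The authors' deposited table gives Rps18-ps6 a log2 fold change of 7.48 in Treg and 8.09 in Teff, and Rps15a-ps8 -7.70 and -6.51. It differs from limma's test for some genes. In Treg it has Rps7-ps3 (0.50), Rps13-ps2 (0.33) and Rpl9-ps4 (0.54) below 0.05, and the parents Rps7 (-0.60) and Rps13 (0.90). None of these passed limma's test in Treg.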

How the data were processed

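Per the labels' protocols, polyadenylated RNA was sequenced as 50-base single-end reads with no step named that marks the strand and no molecular identifiers. The tools named in the submitters' processing notes are Salmon 0.14.1, DESeq2 1.28.1, R 4.0.3 and Trim Galore 0.4.4, with build mm10. How reads of near-identical genes were divided is not stated in these sources. The authors deposited a signal column per library, a normalised read number that is not whole for most genes, so no count test was run. They also deposited log2 fold changes and adjusted p-values, used only where named. Genes of 1 annotated transcript were whole multiples of 1 read (tolerance 0.02) in 100% of values, members in 97.96% to 98.69%. That whole value does not show where else a read could have mapped.

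With limma 3.58.1 in R 4.3.3 (trend and robust shrinkage), log2(value + 1) was fitted with 1 coefficient per group over all 8 libraries. Genes reaching 10 in 2 or more libraries were tested, and called at an adjusted p below 0.05 within each of 5 contrasts. The members and lists were chosen with earlier results of these data known. Genes named with values follow a rule: all called members, the 6 highest, their parents and up to 3 uncalled members of largest change per contrast. Members called for Treg against Teff are given more briefly. Shared 50-base windows (both strands) and local alignments to the parent's longest coding sequence used GENCODE M21 transcripts with Python 3.11.15 and Biopython 1.88. The fit was tested on simulated data in which each gene was drawn independently. Those data held no reads shared between near-identical genes, so they do not test how such reads were divided. Precision rests on 2 libraries per group, and counting intervals cover counting error only, not error in how reads were divided between genes.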

Additional observations from a re-analysis of the deposited data

How the results depend on the processing

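Over 18 alternatives (pseudocount, filter, scaling, shrinkage, replicate block, groups fitted, and each library left out) the number of members called for KO against WT in Teff, 11, was 7 without trend or robust weights and 5 with only the groups compared in the fit. With 1 library left out it ranged from 7 to 12, with 7 without Teff KO replicate 2 and 7 without Teff WT replicate 1. Leaving out 1 library gave 3 to 5 for KO against WT in Treg, 22 to 28 for Treg against Teff in KO, 18 to 23 in WT, and 0 for the difference of the KO effects, which has no fit with only the groups compared. A group left with 1 library was assumed to vary like the others.

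With the replicate number as a block, 4, 11, 0, 25 and 22 members were called for KO against WT in Treg, in Teff, the difference, and Treg against Teff in KO and in WT. Deviations of libraries of the same number from their group means were nearly uncorrelated (-0.04 to 0.06). Much of a deviation from a mean of 2 libraries can be noise, so this does not show whether the numbers pair them.

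In Treg 3 of 4 calls held under all alternatives, and Rps18-ps3 did not. In Teff 5 of 11 did (Rps18-ps6, Rps18-ps3, Rps15a-ps8, Rps15a-ps5 and Rps13-ps2). The call of Rpl14-ps1 was lost in 14 alternatives, Rps15a-ps3 and Rps15a-ps7 in 5 each, Rpl10-ps3 in 4, Rpl17-ps3 in 2 and Rps7-ps3 in 1. For Treg against Teff, 20 of 26 calls held in KO and 15 of 22 in WT. No called member changed sign under these alternatives.

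Summing each family into 1 row, chosen after seeing the data, turned the sign of the KO effect for 8 of 45 parents in Treg and 2 in Teff. In Teff these were Rps18 and Rps7, and in Treg 6 others had changes of at most 0.09 in size on either scale. Rps18 had 0.27 in Treg and 0.54 in Teff, and Rps7 0.27 in Treg and 0.54 in Teff, against -0.67, -0.48, -0.60 and -0.32 for the parent's row alone. Rpl10a, for Treg against Teff in WT, had -0.43 summed (adjusted p = 0.00923), against 0.22 alone, and its difference of the KO effects turned too (0.06 summed, against -0.30).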
